A study of Drosophila melanogaster with 12 samples.

Results

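The proteasome is the cell's main machine for breaking down proteins tagged with ubiquitin. Its barrel-shaped core is made of outer alpha rings and inner beta rings, and the proteolytic sites lie on beta subunits. A regulatory particle on the end of the barrel consists of a base, whose Rpt subunits are ATPases that unfold substrates, and a lid, whose Rpn11 removes ubiquitin chains. Drosophila also has paralogs of several subunits, many of which are known to be expressed mainly in the testis.

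The members were chosen by gene symbol (Prosalpha, Prosbeta, Rpn or Rpt followed by a number or suffix) among probe sets that the platform annotation assigns to 1 gene. They numbered 39 genes on 41 probe sets, of 10844 named genes and 13966 fly probe sets in all. Each gene was represented by its probe set with the highest mean. By symbol, 26 were general subunits, with 6 in the alpha ring, 6 in the beta ring, 6 in the base, 7 in the lid and the ubiquitin receptor Rpn13. The other 13 carry a T or R suffix and are called testis-linked paralogs here. Prosalpha1, Prosbeta1, Rpt1, Rpt6, Rpn9 and Rpn10 were not analysed here as members.

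The data were 12 Affymetrix arrays of RNA from whole Drosophila melanogaster, 1 for each hour from 1 to 12 after adults were put back on a yeast diet. All these flies had lived on food without yeast from early in the third larval instar until 4 days after emergence. The labels give neither genotype, strain, sex nor the number of flies or cultures per array, and hour cannot be told apart from time of day, age or processing order. With 1 array per hour, p-values measure the spread of arrays around a line over hours, which may be technical.

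All 20 nerve, eye, muscle and fat body markers found exceeded the floor on some array, as did 16 of 18 germ line markers. Transcripts of the male accessory gland were high at hours 2, 3, 5, 9 and 10. The summed intensity of 13 such genes was between 1364 and 2125 on these 5 arrays and between 471.2 and 546.4 on the other 7. Of the 13, 11 were higher on all 5, as were 1.84% of all tested probe sets. These hours were picked from the same data, so the count describes the arrays and is no test. Trends were therefore also fitted with these 5 hours left out. In whole animals, more RNA per cell and more cells of a type that is rich in the transcript cannot be told apart.

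The general subunits rose together over the 12 hours. Of the 26 general subunits 22 rose, 0 fell and 4 did not pass (limma, Benjamini-Hochberg adjusted p under 0.05 over all 11586 fly probe sets tested), and at an unadjusted p under 0.05 24 were higher and 0 lower. Over all probe sets tested 8.44% rose and 4.97% fell, and 15.4% were higher and 9.5% lower at that unadjusted p. The median fitted change of the general subunits from hour 1 to hour 12 was 0.63 on the log2 scale, or 1.55-fold, and that of all tested probe sets was 0.01. All 26 fitted changes were positive, between 0.17 for Rpn5 and 1.07 for Rpt2. Of the 11 testis-linked paralogs tested 0 rose, 1 fell and 10 did not pass, with a median change of -0.02. These counts are near the shares of all probe sets. At an unadjusted p under 0.05 the paralogs were again 0 higher and 1 lower. The difference between each general subunit and its paralog was also fitted on hour, a fit added after the plan. Of 11 pairs 8 passed. Those of Prosalpha3T, Prosbeta5R1 and Rpn13R did not (limma adjusted p = 0.0939, 0.0905 and 0.359). Each general subunit in these pairs had risen by itself, and most paralogs were dim, as given below. A pass can therefore restate the rise of the general subunit and does not show what the paralog did. Prosalpha4 and Prosbeta2 each stood in more than 1 pair.

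Averaged over the 26 general subunits, log2 intensity minus each gene's own mean was -0.22 at hour 1, -0.30 at hour 2, -0.14 at hour 3 and -0.32 at hour 4. It was -0.12 at hour 5, 0.01 at hour 6, 0.09 at hour 7, 0.14 at hour 8 and 0.21 at hour 9. It was then -0.01 at hour 10, 0.33 at hour 11 and 0.34 at hour 12. The means at hours 3 and 9 were raised by Rpn2, which lay 1.03 and 0.89 above its own mean there. The number of general subunits above their own mean was 0 at hours 1, 2 and 4 and 1 at hour 3, and it was 24 at hours 7, 8 and 11, 25 at hour 9 and 26 at hour 12. The percentage of all tested probe sets above their own mean stayed between 40.7% at hour 5 and 65.8% at hour 9.

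**Figure D1:**
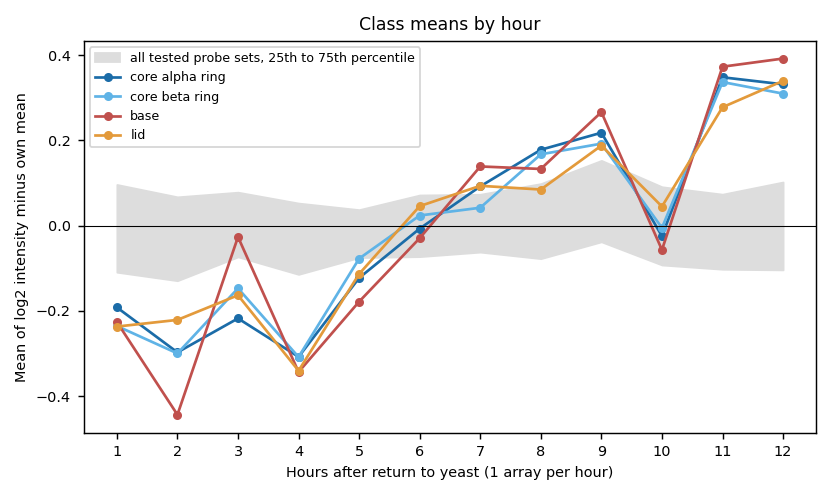
Mean over the members of each class of log2 intensity minus the gene's own mean over 12 arrays (vertical axis) at each hour after the return to yeast (horizontal axis, 1 array per hour); the grey band is the 25th to 75th percentile of all tested probe sets. All 4 classes lie below 0 from hour 1 to hour 5, drop at hour 4 and hour 10, and lie between 0.28 and 0.39 at hours 11 and 12. The base mean at hours 3 and 9 is raised by Rpn2.

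Departures from a steady rise were shared too. At hour 4 all 26 general subunits lay below their own fitted line, and at hour 10 25 of 26 did, by a mean of -0.18 and -0.21 on the log2 scale. Of all tested probe sets 58.5% lay below their own line at hour 4 and 50.04% at hour 10. At hour 11, 24 of 26 were above the line, where 57.8% of all tested probe sets lay below theirs. The lowest array of a general subunit was hour 4 for 12 genes, hour 2 for 10 and hour 1 for 4. The highest was hour 12 for 12 genes and hour 11 for 10. The shares of all probe sets lowest or highest at these hours were not computed. Hour 10 is among the arrays with male transcripts and hour 4 is not. The mean log2 intensity of the germ line markers was lowest at hour 4 (7.08) and was 7.23 at hour 10. The part of male or germ line transcripts in the low values at hours 4 and 10 was not tested.

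**Figure D2:**
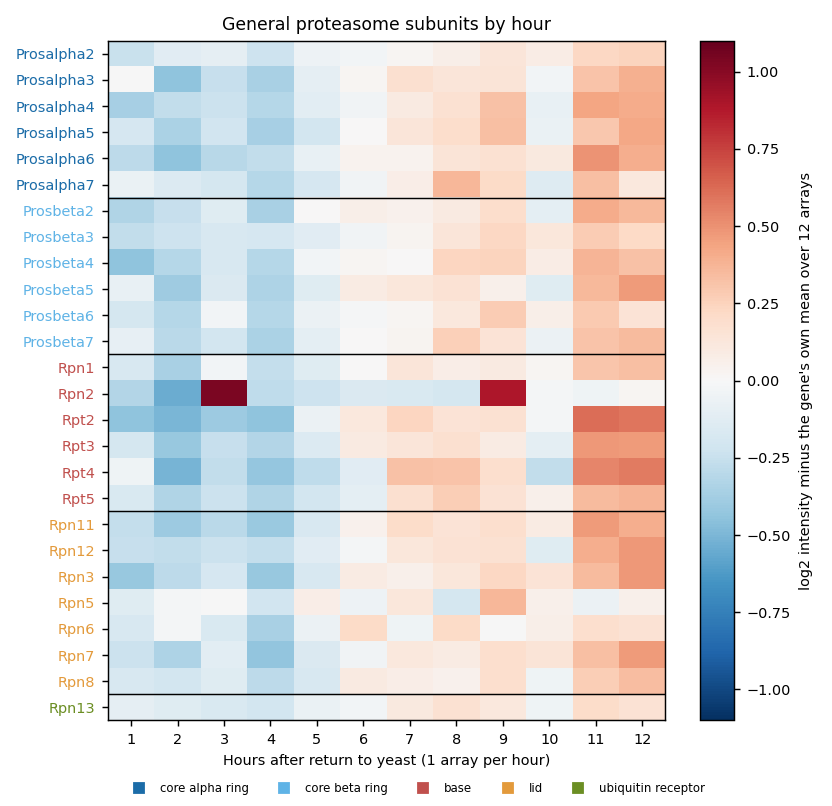
Each row is 1 of 26 general subunits, grouped by class with lines between classes, and each column is 1 array (hours 1 to 12); colour gives log2 intensity minus the gene's own mean, blue where low and red where high. At hour 4 all 26 rows are below their own mean and at hour 12 all 26 are above it, with a paler column at hour 10, and Rpn2 is deep red at hours 3 and 9.

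In the alpha ring, whose subunits gate the entry to the core, 5 of 6 genes rose, with a median change of 0.66 and a range of 0.43 to 0.83. Prosalpha6 had the smallest p of the ring. Its intensities at hours 1 to 12 were 328.6, 294.4, 324.2, 331.1, 376.9, 411.1, 411.1, 440.8, 449.1, 430.5, 563.1 and 528.4. Every array from hour 5 on was above each of the first 4. The fitted rise was 0.83 ± 0.09 (SE, n = 12 arrays; limma adjusted p = 0.000152). Prosalpha2 read 927.7, 1007, 1025, 937.6, 1057, 1077, 1115, 1148, 1201, 1158, 1284 and 1303. It too was higher on each array from hour 5 on than on any before, but its rise of 0.46 ± 0.07 was smaller (limma adjusted p = 0.000869). Prosalpha3, Prosalpha4 and Prosalpha5 rose by 0.62, 0.77 and 0.70. The call of Prosalpha3 was lost with hours 2, 3, 5, 9 and 10 left out (0.54, limma adjusted p = 0.0959) and on log2 of hour (0.0563). With the germ line covariate described at the end it was lost too (0.30, limma adjusted p = 0.125). The probe set of Prosalpha7 had a change of 0.43 ± 0.15 that did not pass (limma adjusted p = 0.0725), from 220.9 at hour 1 to 251.2 at hour 12 with its highest value, 299.3, at hour 8. Without hour 10 it passed (0.52, limma adjusted p = 0.0194). A second, dimmer probe set of Prosalpha7 was flat, between 120.5 and 146.7 (change -0.03, limma adjusted p = 0.89). A probe set shared by Prosalpha1 and Prosalpha1R, which cannot be told apart on it, is no member. It went from 387.2 at hour 1 to 600.0 at hour 12, with a change of 0.73 (limma adjusted p = 0.00677).

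In the beta ring all 6 genes analysed rose, with a median of 0.59 and a range of 0.52 to 0.77. Prosbeta3, a structural subunit of the ring, read 601.2, 618.1, 639.9, 637.5, 664.4, 706.1, 739.8, 794.7, 848.6, 788.7, 879.2 and 841.1. Prosbeta4, also without a proteolytic site, read 607.5, 666.8, 731.4, 665.1, 811.3, 840.4, 828.0, 976.0, 978.8, 877.8, 1074 and 1033. In both, the arrays from hour 5 on lay wholly above the first 4. The rise of Prosbeta3 was 0.57 ± 0.07 (limma adjusted p = 0.00022) and that of Prosbeta4 0.77 ± 0.09 (0.000238). The catalytic subunits Prosbeta2 and Prosbeta5, which carry the trypsin-like and the chymotrypsin-like activity, rose by 0.65 ± 0.12 and 0.61 ± 0.14, within 1 SE of each other. Prosbeta5 was lowest at hours 2 and 4 (371.6 and 384.4) and highest at hour 12 (671.2). Without hour 12 its change was 0.51 and did not pass (limma adjusted p = 0.0715). Nor did Prosbeta5 pass on log2 of hour (limma adjusted p = 0.0572) or with the germ line covariate (0.23, 0.13). Prosbeta6 rose by 0.52 and Prosbeta7 by 0.57, a call lost for Prosbeta7 with hours 2, 3, 5, 9 and 10 left out (0.60, limma adjusted p = 0.058) and with the germ line covariate described at the end (0.33, 0.0929). The second probe set of Prosbeta6 was at or under the floor on all 12 arrays and was not tested.

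In the base 5 of 6 genes rose, with a median of 0.73 and a range of 0.26 to 1.07. The ATPase gene Rpt2 had the largest fitted change of all members. It read 204.1, 196.0, 210.8, 204.3, 265.1, 301.3, 327.9, 308.6, 311.6, 273.1, 426.3 and 418.2, with no overlap between the first 4 arrays and the others, and rose by 1.07 ± 0.15, or 2.10-fold (limma adjusted p = 0.000485). Rpt5, another of the ATPases, read 257.4, 230.9, 245.5, 230.3, 252.2, 268.4, 327.7, 350.8, 323.7, 301.5, 368.8 and 375.3. Its hour 5 lay among the first 4 arrays, and it rose by 0.70 ± 0.11 (limma adjusted p = 0.00157). Rpt3 rose by 0.75 ± 0.14. Rpt4 rose by 0.83 ± 0.22 (limma adjusted p = 0.0222), a call that was lost at changes of 0.73 to 0.75 without hour 2, 11 or 12 (limma adjusted p = 0.0712, 0.0765 and 0.0959). That call was also lost without hours 3 and 9 (limma adjusted p = 0.0581), on log2 of hour (0.0947) and without the filter on dim probe sets (0.0609). Without hours 2, 3, 5, 9 and 10 the change of Rpt4 was 0.87 and did not pass (limma adjusted p = 0.0639). With the germ line covariate described at the end it was 0.30 (limma adjusted p = 0.282). Rpn1, a scaffold that docks shuttle factors and substrates, rose by 0.55 ± 0.10.

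Rpn2, the other large scaffold of the base, did not pass. It read 312.7, 267.2, 798.2, 321.7, 332.6, 348.9, 347.2, 341.7, 723.2, 385.2, 378.3 and 396.2, so that hours 3 and 9 stood far above every other array. Over all arrays its change was 0.26 ± 0.39 and did not pass (limma adjusted p = 0.767). Without hours 3 and 9, an alternative added after its values were seen, it was 0.44 and passed (limma adjusted p = 0.00924). With hours 2, 3, 5, 9 and 10, which held male transcripts, left out, it was 0.33 and passed (limma adjusted p = 0.0327). That fit drops hours 3 and 9 too, so it is no separate support. At the other hours with male transcripts, 2, 5 and 10, Rpn2 read 267.2, 332.6 and 385.2. The part of male transcripts in the values at hours 3 and 9 was not tested. Of the 11586 probe sets tested 41 had both hours 3 and 9 at least 1.5 times above every other array, among them EDTP, Capa and mRpS18A, which were chosen after their values were seen. No other general subunit was among them.

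**Figure D3:**
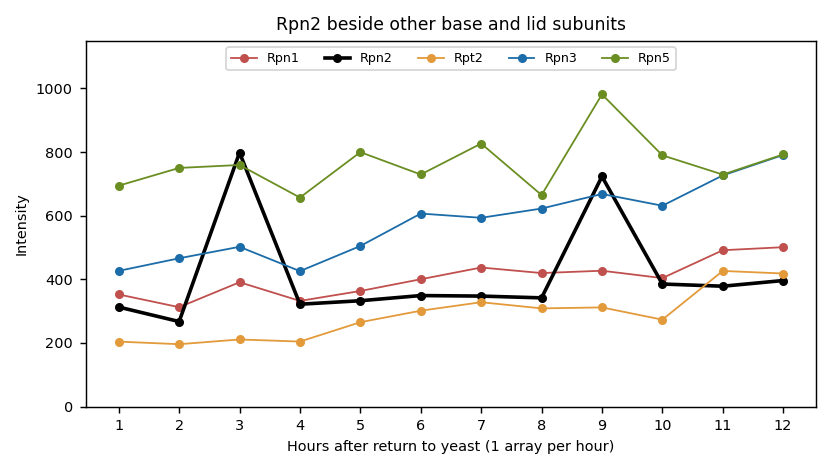
Intensity (vertical axis, from 0) of 3 base subunits (Rpn1, Rpn2, Rpt2) and 2 lid subunits (Rpn3, Rpn5) at each hour (horizontal axis, 1 array per hour); heights of different probe sets are not comparable. Rpn2 reads 798.2 at hour 3 and 723.2 at hour 9 and at most 396.2 elsewhere, while Rpn1 and Rpt2 show no such peaks.

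In the lid 5 of 7 genes rose, with a median of 0.69 and a range of 0.17 to 0.85. Rpn3, a scaffolding subunit of the lid, read 426.5, 466.1, 502.2, 425.7, 504.7, 606.7, 593.3, 622.4, 668.3, 631.3, 726.6 and 791.0 and rose by 0.85 ± 0.10 (limma adjusted p = 0.000168). Rpn11, the metalloprotease that cuts ubiquitin chains from substrates, read 218.6, 199.4, 213.3, 198.2, 233.0, 271.0, 302.8, 290.8, 298.2, 279.1, 363.7 and 346.4 and rose by 0.84 ± 0.11 (limma adjusted p = 0.000457). In both genes every array from hour 5 on lay above the first 4, for Rpn3 by a small margin at hour 5. Rpn7 rose by 0.76, Rpn12 by 0.69 and Rpn8, the inactive partner of Rpn11, by 0.52. The call of Rpn8 was lost with the germ line covariate (0.33, limma adjusted p = 0.0642). The changes of Rpn6 (0.37 ± 0.12, limma adjusted p = 0.057) and Rpn5 (0.17 ± 0.13, limma adjusted p = 0.495) did not pass, though Rpn6 did without hour 6 (0.38, limma adjusted p = 0.0382). Rpn5 had its highest value, 981.4, at hour 9 and otherwise lay between 657.0 and 826.8. Rpn13, which binds ubiquitin on the base, read 427.4, 417.1, 406.0, 396.4, 435.7, 447.2, 493.9, 514.7, 494.7, 441.9, 525.6 and 511.1. It rose by 0.35 ± 0.09 (limma adjusted p = 0.0177) and without hour 11 it did not pass (change 0.33, limma adjusted p = 0.0603). Nor did Rpn13 pass with hours 2, 3, 5, 9 and 10 left out (0.38, limma adjusted p = 0.0753). Its call was also lost without hours 3 and 9 (limma adjusted p = 0.0556) and with the germ line covariate (0.22, 0.173).

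The class medians of 0.66, 0.59, 0.73 and 0.69 for alpha ring, beta ring, base and lid lay close together, and the ranges of the classes overlapped. The median SE of a general subunit was 0.12, and no test between classes was made. A split at hour 5, chosen after the values were seen, left 12 of the 26 general subunits with hours 5 to 12 wholly above hours 1 to 4, against 4.54% of all tested probe sets. These were 3 genes of the alpha ring, 3 of the beta ring, 2 of the base, 3 of the lid and Rpn13.

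**Figure D4:**
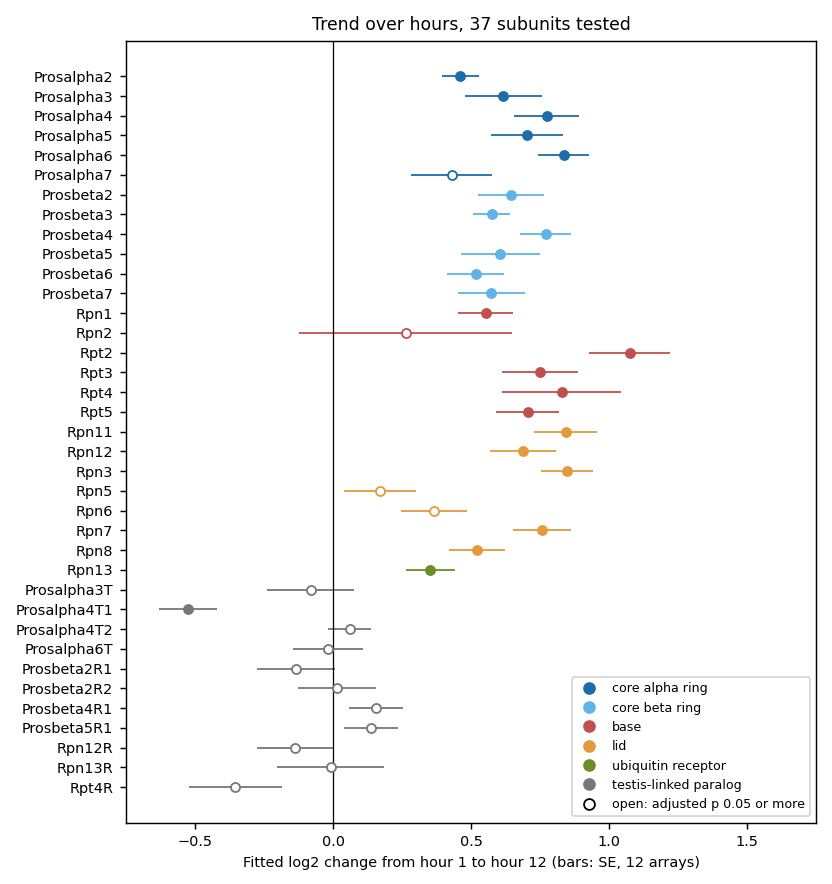
Fitted log2 change from hour 1 to hour 12 (horizontal axis; point with SE bar, 12 arrays) for each of the 37 members tested (vertical axis), coloured by class; filled points passed an adjusted p of 0.05 and open ones did not. General subunits lie between 0.17 and 1.07, and testis-linked paralogs lie between -0.52 and 0.16.

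The next question was in which part of the 12 hours the members moved. Averages over hours 1 to 4, 5 to 8 and 9 to 12 were compared, treating the 4 hours of a window as its replicates. They are different hours and not replicates, so the spread within a window includes any change within it. Between the first and last windows 21 of 26 general subunits rose and 0 fell, where 5.42% of all probe sets rose and 3.01% fell, and the median difference was 0.48. The first step, from hours 1 to 4 to hours 5 to 8, had a median difference of 0.30 over the general subunits, positive for 25 of 26. Only Prosbeta4 (0.37, limma adjusted p = 0.0447) and Rpt2 (0.56, limma adjusted p = 0.0447) passed there, of all probe sets 1.81% rose and 0.0777% fell, and at an unadjusted p under 0.05 22 general subunits were higher and 0 lower, against 12% and 4.67% of all probe sets. The second step, to hours 9 to 12, had a median difference of 0.19, positive for 26 of 26. In that step 0 members and 0 of all probe sets (0%) passed in limma in either direction. At an unadjusted p under 0.05, 9 general subunits were higher and 0 lower, and among the paralogs 1 was higher and 1 lower, against 2.85% higher and 3.81% lower of all probe sets. Counts between the first and last windows fell to 12 without hour 11 and 13 without hour 12, while without 1 hour the first step gave between 0 and 7 members.

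The testis-linked paralogs were dim. Of the 13, 2 (Prosbeta4R2 and Rpt3R) were at or under the floor of 57.2 on all 12 arrays and were not tested, and Prosbeta5R1 exceeded it on 10. Control probe sets without a fly target reached between 98.1 at hour 7 and 135.2 at hour 12. The median of these controls was highest at hour 9 (53.8, at most 48.3 elsewhere), as was the median of all fly probe sets (120.3). Its part in paralog values at hour 9 was not tested. Prosalpha4T2 alone was above the highest control of each array on all 12 arrays, Prosbeta2R1 was on 10 and Prosbeta2R2 on 9, and each of the other 10 was on 6 or fewer. Most paralog values lay at or under the level that probe sets without a target reached.

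Among the alpha paralogs, Prosalpha4T1 was the member that fell. It read 129.9, 100.6, 106.5, 84.9, 97.8, 99.3, 94.2, 92.1, 83.6, 81.0, 81.5 and 80.0, and the fitted change was -0.52 ± 0.11 (limma adjusted p = 0.00523). Only hour 1 was above the highest control. The call was lost with the floor at the 40th percentile (-0.28, limma adjusted p = 0.0564) and with hours 2, 3, 5, 9 and 10 left out (-0.56, limma adjusted p = 0.0745). Prosalpha4T2 read 148.9, 150.5, 145.5, 141.4, 135.2, 142.4, 148.0, 140.0, 144.0, 137.6, 158.8 and 159.3, a narrow range with no trend that passed (0.06 ± 0.08). Prosalpha3T read 93.2, 111.5, 114.1, 117.0, 94.6, 95.0, 92.7, 88.6, 125.2, 114.0, 83.9 and 102.0. Prosalpha6T read 89.6, 111.1, 112.1, 99.8, 96.0, 83.3, 101.2, 103.4, 118.4, 99.1, 97.0 and 93.8. Both had their highest value at hour 9, and neither trend passed (-0.08 ± 0.16 and -0.02 ± 0.13).

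Among the beta paralogs, Prosbeta2R1 read 118.3, 124.2, 144.2, 133.3, 124.6, 110.6, 115.5, 94.1, 134.6, 134.4, 118.6 and 110.3. Prosbeta2R2 read 107.1, 112.0, 125.9, 109.4, 99.7, 153.9, 108.6, 107.2, 117.7, 107.4, 117.2 and 114.6, where hour 6 stood apart. Prosbeta4R1 stayed between 79.3 at hour 8 and 104.0 at hour 9, reading 83.9, 89.2, 98.1, 91.3, 86.7, 86.6, 90.4, 79.3, 104.0, 96.0, 99.9 and 96.2. Prosbeta4R2, which lies next to Prosbeta4R1 in the RefSeq gene order with 1 gene between them, was the dimmest member, between 17.7 and 29.1. Prosbeta5R1 read 53.4, 69.0, 59.2, 61.3, 59.7, 60.5, 63.4, 52.8, 70.2, 60.4, 65.2 and 70.2. The trends of those tested did not pass, at changes from -0.13 to 0.16.

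Among the regulatory paralogs, Rpn12R read 87.2, 113.7, 109.4, 117.0, 101.8, 94.4, 96.1, 98.9, 109.8, 114.7, 87.8 and 86.2. Rpn13R read 92.8, 105.7, 108.2, 115.5, 107.4, 95.0, 104.9, 101.6, 160.2, 111.7, 85.2 and 92.8, with hour 9 far above the rest. Rpt4R was highest at hours 2 and 3, reading 88.0, 113.1, 114.9, 98.1, 85.8, 81.2, 78.9, 74.6, 104.6, 96.6, 83.9 and 71.1. None of these 3 passed, and the largest change was that of Rpt4R (-0.35 ± 0.17, limma adjusted p = 0.212). Rpt3R stayed between 37.2 and 46.1.

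Most testis markers were high on the arrays with accessory gland transcripts. Mst84Dd, made in the male germ line, read 517.9, 564.2, 437.9, 351.8 and 277.4 at hours 2, 3, 5, 9 and 10 and at most 127.2 on the other 7 arrays. Of 10 testis genes found on the platform 7 were higher on all of these 5 arrays. Their summed intensity ranged from 2491 to 3384 on the 5 and from 1647 to 1872 on the other 7. Of the 37 members tested, 0 had the 5 arrays wholly above or wholly below the others. That count is near the shares of all tested probe sets, 1.84% above and 0.302% below. The untested Prosbeta4R2 did, reading from 22.8 to 29.1 on the 5 arrays and from 17.7 to 22.6 on the others, all under the floor. In Rpn12R, Rpn13R and Prosbeta2R1 hour 4 alone of the other 7 arrays overlapped the 5. These paralogs read 117.0, 115.5 and 133.3 at hour 4, and at least 101.8, 105.7 and 124.2 on the 5. They were singled out after their values were seen. The share of all probe sets with such a single overlap was not computed, so nothing is drawn from it. Rpn12R and Rpn13R were above the highest control on only 5 and 6 arrays, and Prosbeta2R1 was on 10. The other tested paralogs overlapped on more arrays. Prosalpha3T, for example, read between 94.6 (hour 5) and 125.2 on the 5 arrays and between 83.9 and 117.0 (hour 4) on the other 7. No test was made between these arrays, since the labels give no sex.

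**Figure D5:**
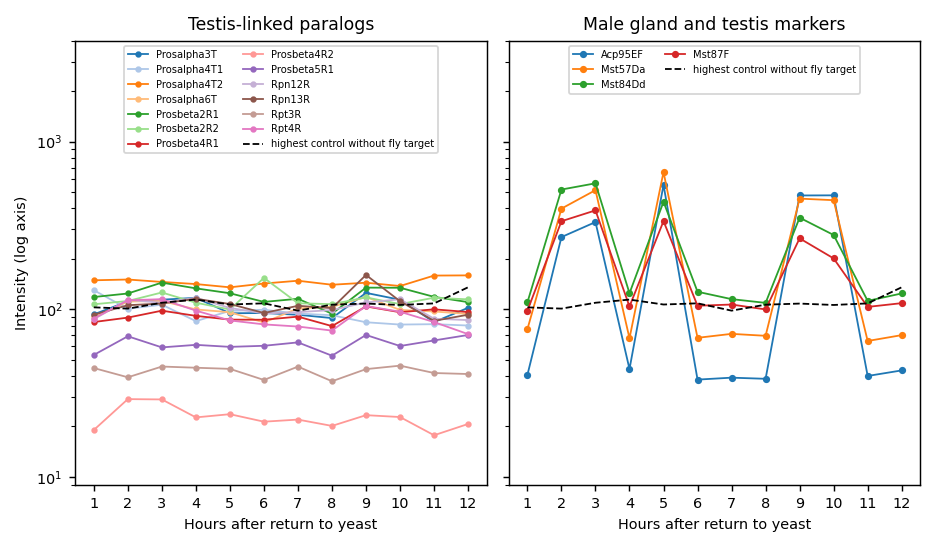
Intensity on a log axis at each hour (1 array per hour) for the 13 testis-linked paralogs (left) and for 2 accessory gland genes (Acp95EF, Mst57Da) and 2 testis genes (Mst84Dd, Mst87F) (right); the dashed line is the highest control probe set without a fly target on each array. Markers on the right jump at hours 2, 3, 5, 9 and 10, whereas most paralogs stay near or under the dashed line throughout.

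Other genes of the ubiquitin and proteasome pathway were taken from a list. Of 64 symbols, alternative names included, 53 were found and 52 tested. Of these 14 rose, 2 fell and 36 did not pass, so that 26.9% rose against 8.44% of all probe sets. The 3.85% that fell were near the 4.97% of all probe sets, and the median change was 0.18. Deubiquitinases, which trim ubiquitin from substrates and recycle it, had 4 of 7 that rose and 1 that fell. Usp14, which docks on the proteasome base, read 228.8, 246.4, 260.4, 250.4, 277.1, 302.6, 323.2, 346.2, 360.2, 302.0, 416.8 and 393.0 and rose by 0.79 ± 0.10 (limma adjusted p = 0.000283). It was low at hour 4 and hour 10 beside its neighbours, as the subunits were. Usp5 rose by 0.55 ± 0.08, Uch by 0.71 and Uch-L5, the partner of Rpn13, by 0.73, while Usp47 fell by 0.40 on the log2 scale (-0.40 ± 0.11, limma adjusted p = 0.0337).

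Of 6 segregase and shuttle factors, which extract substrates and carry them to the proteasome, 3 rose. TER94, the ATPase that pulls tagged proteins out of complexes and membranes, read 711.1, 775.8, 871.9, 722.9, 928.5, 1092, 998.5, 1097, 1081, 1174, 1234 and 1428. It rose by 0.91 ± 0.10 (limma adjusted p = 0.000168), higher on each array from hour 5 on than on any before. Its cofactor p47 rose by 0.67 ± 0.12 and the shuttle Rad23 by 0.57. Npl4, another cofactor of TER94, had a change of -0.41 ± 0.16 that did not pass (limma adjusted p = 0.118). In the COP9 signalosome, a complex related to the lid, 4 of 8 subunits rose, with CSN8 at 0.81 ± 0.16 and CSN5 at 0.43 ± 0.10.

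Of 10 genes of ubiquitin and its activating and conjugating enzymes 1 rose, the ubiquitin-like modifier Nedd8 (0.71 ± 0.14, limma adjusted p = 0.00515). The next smallest p was that of Uba3, an activating subunit for Nedd8, which did not pass (0.25 ± 0.08, limma adjusted p = 0.0586), nor did the larger change of Uev1A (0.42 ± 0.14, 0.0597). The polyubiquitin gene Ubi-p63E had a change of -0.19 and did not pass (limma adjusted p = 0.224). Of 13 ligase subunits 1 rose, the RING protein Roc1a (0.54 ± 0.11, limma adjusted p = 0.00594), and ago had a change of 0.22 that did not pass (0.149). Of 8 assembly factors, activators, inhibitors and transcription factors 1 rose and 1 fell. The shares that rose among the ubiquitin, ligase and assembly genes were 10%, 7.69% and 12.5%, near the 8.44% of all probe sets. The 1 assembly gene that fell made 12.5%, against 4.97% of all probe sets. Sem1, a small lid subunit whose symbol the rule does not cover, rose by 0.83 ± 0.21 (limma adjusted p = 0.0169). The gene of the small Maf protein maf-S, the partner of the factor CncC that drives proteasome genes in flies, read 320.9, 241.1, 228.9, 188.2, 185.9, 173.5, 189.6, 196.5, 163.0, 149.3, 180.4 and 160.6 and fell by 0.76 on the log2 scale (-0.76 ± 0.15, limma adjusted p = 0.00481). Its hour 1 was above all other arrays. The gene cnc, which encodes CncC, had a change of 0.00 ± 0.11 and the core assembly factor gene Pomp one of 0.45 ± 0.16, and neither passed (limma adjusted p = 1 and 0.0855). The number of pathway genes that fell was 5 without hour 10 and 1 without hour 2, 3, 5, 9, 11 or 12.

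Other measures moved with the same hours. For actin, the log2 signal of the control at the 3' end exceeded that at the 5' end, a gap that grows as RNA degrades, by 1.13 at hour 1 and by 0.69 at hour 12. With this gap as covariate 7 members rose, Prosalpha6, Prosbeta3, Rpn1, Rpt2, Rpn3, Rpn7 and Rpn11, and 0 fell, while 0.535% of all probe sets rose. The median change of general subunits was then 0.72, and the median SE of the tested members went from 0.12 to 0.21. Some germ line genes moved as well. Of 15 germ line and oogenesis genes tested 5 rose and 2 fell, where 8.44% of all probe sets rose and 4.97% fell. The summed intensity of all 18 such genes found was lowest at hour 4 (2991) and hour 2 (3089). It was highest at hour 11 (4387) and hour 12 (4822). With the mean of these genes as covariate, added after seeing the data, 16 members rose and 1 fell where 3.84% of all probe sets rose, and the median change of general subunits was 0.43. The part of either measure in the rise was not tested beyond these fits. With hours 2, 3, 5, 9 and 10 left out, 19 members rose and 0 fell, where 4.53% of all probe sets rose and 2.79% fell, and the general median was 0.69.

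Some markers of other tissues moved over the same hours, in which 8.44% of all tested probe sets rose and 4.97% fell. Of 6 fat body genes 4 rose, with a median change of 1.81, and the summed intensity of the 6 went from 3190 at hour 1 to 17449 at hour 12. Most of that sum was yolk protein genes, with Yp1, Yp2 and Yp3 at 5204, 4479 and 5854 at hour 12. The gene apolpp rose by 1.06, while Lsp2 and Fbp1 had changes of 0.02 and 0.08 that did not pass. Of 4 eye genes 4 fell, with a sum of 8687 at hour 1 and 5135 at hour 12. Of 6 nerve genes 3 fell, and of 4 muscle genes 1 fell, Mlc2. The part of these tissues in the change of the subunits was not tested.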

How the data were processed

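RNA from whole flies was measured on 12 arrays, 1 per hour. Per the labels, the authors used Trizol for extraction and dChip for normalization to an invariant set. The dChip version and background model were not stated in the labels. The authors deposited linear intensity values, used as they stand. Of 14010 probe sets 44 were controls. Arrays give no read depth; their number limits the precision.

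Intensities under the 20th percentile of the table (57.2) were set to that floor before log2. Fly probe sets above it on at least 3 arrays were tested (11586, with 2380 left out). R 4.3.3 and limma 3.58.1 fitted a slope on hour, given as the log2 change over 11 hours, and 3 windows of 4 hours, with Benjamini-Hochberg adjustment over all tested probe sets. The code was tested on simulated data. Symbols come from the platform annotation, and all 39 members had the same symbol in RefSeq Release 6 plus ISO1 MT.

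Members, classes and lists were chosen with earlier results of these data known. Values on each array are given for the 2 members of each class with the smallest trend p, members that fell, and tested paralogs. In the pathway list the 2 genes of each group with the smallest p and those that fell are named, and other named genes were chosen after their values were seen. Alternatives are other normalizations, floors, filters, variance model, probe set rule, time scale, covariates and omitted arrays. Promoter motifs and sequences were not analysed here.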

Additional observations from a re-analysis of the deposited data

How the results depend on the processing

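No paired analysis was possible because each hour has 1 array and no replicate number. The count of members that rose, 22 over all arrays, was 7 with the actin covariate, 16 with the germ line covariate, 19 without the arrays of hours 2, 3, 5, 9 and 10 or on log2 of hour, and 20 to 23 without 1 hour. Without those 5 arrays 18 of the 23 calls in either direction were kept. The 1 member that fell, Prosalpha4T1, became 0 with the 40th percentile floor, without those 5 arrays and with the actin covariate. With the germ line covariate the median changes were 0.44 for the alpha ring, 0.45 for the beta ring, 0.42 for the base, 0.44 for the lid, 0.43 for general subunits and 0.15 for the paralogs. The lid median was 0.81 without those 5 arrays. Leaving out 1 hour moved the alpha median between 0.60 and 0.79 (without hour 1) and the paralog median between -0.14 (without hour 9) and 0.0026.

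The count of members higher in the last window than in the first, 21 over all arrays, was 0 with the actin covariate, 10 with the germ line covariate and 12 to 23 without 1 hour. The 1 member lower there became 0 with the 40th percentile floor, without a filter, without the 5 arrays, with either of these covariates, without hours 3 and 9, and without any 1 hour other than hour 4, so that this count ran from 0 to 1. The first step, with 2 members higher, gave 0 with quantile normalization, no filter, the actin or germ line covariate, or without hours 3 and 9, 1 with median normalization or robust variance, 4 with the filter at 12 arrays or the male covariate, and 7 without the 5 arrays. Without 1 hour it gave 0 to 7, and the male covariate added 1 member lower. The count of pathway genes that rose, 14 over all arrays, was 2 with the actin and 6 with the germ line covariate and 11 to 20 without 1 hour. The count that fell, 2 over all arrays, was 4 with quantile normalization, 1 without a filter, without the 5 arrays or without hours 3 and 9, 0 with the actin covariate, and 1 to 5 without 1 hour. The causes were not tested. The germ line covariate and the omission of hours 3 and 9 were chosen after seeing the data. The 23 members called over hours, 22 higher and 1 lower, kept their sign under these settings. Signals near the controls limit what the paralogs can show.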
